A study of Mus musculus with 9 samples.

Results

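Itch neurons marked by the natriuretic peptide gene Nppb and the somatostatin gene Sst made up 68 of the 3855 neuronal barcodes, and of 6997 barcodes in all, in Drop-seq libraries of mouse trigeminal ganglia. A barcode stands for a cell, and the measured value is the number of unique molecular identifiers (UMIs, counts of distinct captured mRNA molecules) per gene. A neuronal barcode had 500 to 7500 genes with a UMI, at least 3 of the 6 neuronal genes Tubb3, Scn9a, Snap25, Nefl, Nefm and Uchl1, and no UMI of the epithelial gene Epcam. The 68 members were chosen by their UMIs of 6 marker genes. They had at least 2 of Nppb, Sst, Il31ra, Htr1f, Npy2r and Cysltr2, of which at least 1 was Nppb, Sst or Il31ra, and no UMI of Mrgpra3, a marker of another itch class. They were 1.76% of the neuronal barcodes (exact 95% binomial interval 1.37 to 2.23%).

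The ganglia came from wild type FVB/N mice of 3 to 6 weeks, and the dissociated cells were enriched for neurons on a Percoll gradient and with a neuron isolation kit. All 9 samples of the series, called runs below, carried the same labels, so there was 1 group and no treatment. The barcodes did not name their run, so all cells were treated as 1 sample, and no test over animals or runs could be made. Every interval below is a 95% interval of counting error only, since the spread between mice was not measured.

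Itch-selective sensory neurons are small unmyelinated cells whose endings lie in the skin and whose central branches reach the dorsal horn or its trigeminal counterpart. Nppb encodes the precursor of B-type natriuretic peptide, which these neurons use to pass the itch signal to spinal neurons. Their surface receptors detect products of immune cells: IL-31 acts through a receptor made of IL31RA and OSMR, whose signal runs through the kinase JAK1 to STAT proteins, CYSLTR2 binds cysteinyl leukotrienes, and HTR1F is a serotonin receptor.

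The promoters of 5 genes of this class are shown because they belong to the 2 peptides and to the IL-31 receptor pathway that the results below turn on. Each is the 250 bases before the RefSeq start on the gene's strand, from build GRCm38.p6, which has the coordinates of the mm10 build used for the files. The positions are chr4:147985650-147985899 (plus strand) for Nppb, chr16:23890845-23891094 (minus) for Sst, chr13:112580663-112580912 (minus) for Il31ra, chr15:6874314-6874563 (minus) for Osmr and chr4:101265224-101265473 (minus) for Jak1. The GENCODE gene spans, which give the gene positions in the text, reach further upstream in all 5, and the Il31ra and Osmr windows lie inside the wider gene, which for Il31ra ends at 112594360. Capitals mark matches on either strand to the cyclic AMP response element TGACGTCA, the STAT motif TTCNNNGAA, the GATA motif AGATAA and the TATA box TATAAA.
Nppb: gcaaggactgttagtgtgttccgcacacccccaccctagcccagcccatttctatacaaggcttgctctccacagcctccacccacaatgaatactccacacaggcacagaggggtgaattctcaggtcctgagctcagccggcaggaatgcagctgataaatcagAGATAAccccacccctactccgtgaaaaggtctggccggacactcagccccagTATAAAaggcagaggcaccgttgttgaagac
Sst: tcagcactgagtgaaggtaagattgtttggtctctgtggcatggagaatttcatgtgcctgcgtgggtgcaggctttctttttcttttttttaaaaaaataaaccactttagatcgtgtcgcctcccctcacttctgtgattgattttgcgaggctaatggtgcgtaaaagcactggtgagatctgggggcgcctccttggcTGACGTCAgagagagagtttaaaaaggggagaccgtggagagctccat
Il31ra: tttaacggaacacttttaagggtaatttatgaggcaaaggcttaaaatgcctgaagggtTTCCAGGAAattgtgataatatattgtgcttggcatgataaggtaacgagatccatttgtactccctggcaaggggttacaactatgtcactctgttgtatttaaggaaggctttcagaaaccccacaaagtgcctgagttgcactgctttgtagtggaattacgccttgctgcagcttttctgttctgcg
Osmr: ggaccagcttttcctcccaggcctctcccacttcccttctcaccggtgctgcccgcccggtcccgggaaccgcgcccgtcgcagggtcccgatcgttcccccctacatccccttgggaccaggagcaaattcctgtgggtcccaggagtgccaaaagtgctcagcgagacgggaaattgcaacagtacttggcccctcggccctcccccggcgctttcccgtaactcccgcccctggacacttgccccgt
Jak1: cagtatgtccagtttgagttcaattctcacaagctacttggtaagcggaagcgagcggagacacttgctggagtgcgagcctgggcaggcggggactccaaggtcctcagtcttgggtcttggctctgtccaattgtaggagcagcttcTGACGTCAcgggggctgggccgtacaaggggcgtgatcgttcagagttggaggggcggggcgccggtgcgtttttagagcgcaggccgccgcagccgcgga
The cyclic AMP response element stood in the Sst and Jak1 sequences, against 1.55% of 32851 promoters of the same length. The STAT motif was in the Il31ra sequence (7.02% of all promoters), and the GATA motif (9.99%) and the TATA box (12.4%) were in the Nppb sequence. The Osmr sequence held none of these, and the RUNX motif TGTGGT, present in 14% of all promoters, was in none of the 5. These are letter matches in a short window and not evidence of binding.

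The members carried 413379 UMIs in all. A member had 1017 UMIs at the least, 3198 at the median and 55655 at the most, beside a median of 3014 UMIs over the 3787 other neurons. Nppb was seen in 92.6% of the members and Sst in 83.8%. The receptor subunit gene Il31ra followed with 61.8%, then the neuropeptide Y receptor gene Npy2r with 57.4%, Cysltr2 with 45.6% and Htr1f with 42.6%. These values chose the members and are given only as a description. All 6 markers were seen in 9 members, 5 in 13, 4 in 18, 3 in 14 and only 2 in 14. The 9 members with all 6 had a median of 6927 UMIs, while the median was between 2406 and 2773 UMIs for members with 2 to 5, so the number of markers seen rose with the depth of the cell at its upper end.

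The marker content of the members fell into 2 ranges. In 62 members the 6 markers together made up 1123 to 7896 counts per 1000000 UMIs of the cell (CPM), with a median of 4058 CPM. In the other 6 they made up 35.9 to 248 CPM. No member lay between these ranges, and the 2 sets are called marker-rich and marker-poor below, split at 500 CPM after the values were seen. The 6 marker-poor members each had exactly 2 of the 6 markers and were deep, with 8060 to 55655 UMIs, and they held 34.8% of all UMIs of the class. Together they carried 340 UMIs of the CGRP gene Calca, 301 of the substance P gene Tac1, 29 of the cold receptor gene Trpm8, 28 of Mrgprd and 171 of the neurofilament gene Nefh, all markers of other trigeminal neuron classes. The 62 marker-rich members had 14 UMIs of Calca, at most 2 in a cell, and none of Trpm8. Values are therefore given for all 68 and for the 62.

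**Figure D1:**
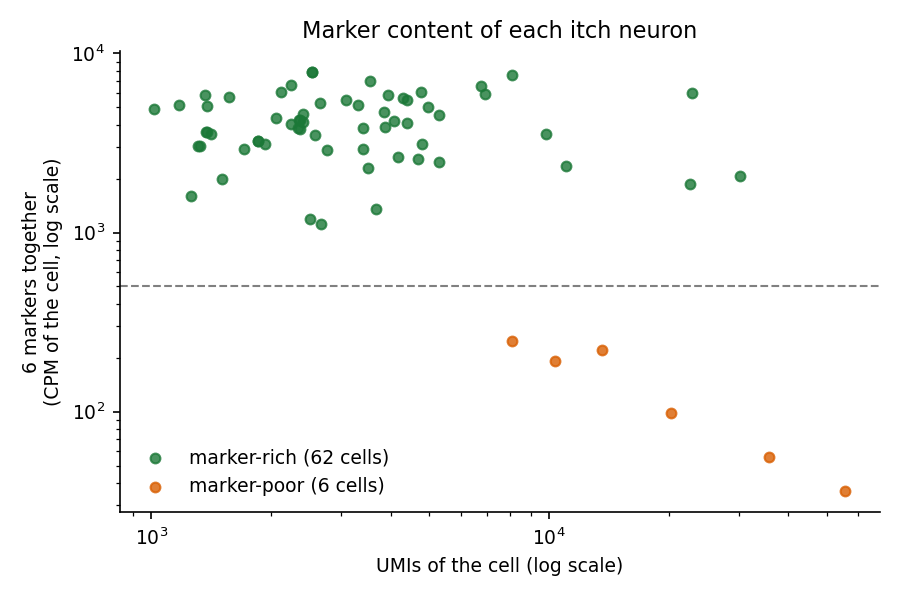
Each point is 1 of the 68 itch neurons. The x axis gives the UMIs of the cell and the y axis the level of the 6 marker genes together in CPM of that cell, both on log scales, and the dashed line marks 500 CPM. The 62 marker-rich cells lay at 1123 CPM or above, and the 6 marker-poor cells lay at 248 CPM or below.

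**Figure D2:**
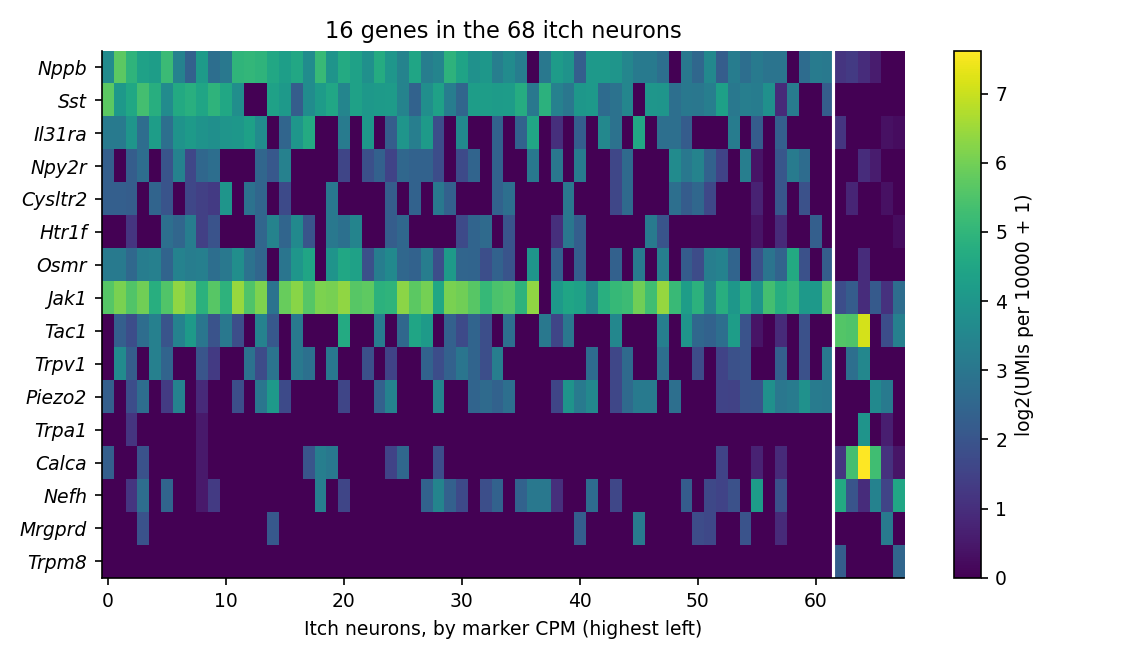
Columns are the 68 itch neurons, ordered by marker CPM from the left, and rows are 16 genes. Colour gives log2(UMIs per 10000 UMIs of the cell + 1), and the white line separates the 62 marker-rich cells from the 6 marker-poor ones. Jak1 was seen in 61 of the 62 cells left of the line, and the highest Calca values stood to its right.

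In the 62 marker-rich cells, Nppb (gene at chr4:147985788-147987205) had from 0 to 38 UMIs a cell with a median of 3.50, and Sst (chr16:23889573-23890958) from 0 to 49 with a median of 4. The 2 peptide genes were seen together in 54 of the 62 cells, Nppb alone in 5 and Sst alone in 3. Over the cells, Nppb summed to 1368 CPM of the group's UMIs and Sst to 1298 CPM. The other neurons had 2.93 CPM of Nppb and 4.49 CPM of Sst, a contrast that the rule itself set, as it did much of the joint detection. No Nppb UMI was found in 243 glia or 354 red blood cell barcodes, the background against which free RNA was read, and 1 Sst UMI was found in the glia. Marker detection followed depth: Il31ra was seen in 17 of the 31 marker-rich cells with at most 2666 UMIs and in 22 of the 31 deeper ones, although its level was alike, at 693 and 674 CPM.

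Outside the rule, the genes that set the class apart most included the second subunit of the IL-31 receptor and its kinase. Osmr (chr15:6813577-6874969) had from 0 to 20 UMIs a marker-rich cell with a median of 2, and 50 of the 62 cells had at least 1. Its level was 597 CPM in the marker-rich cells and 392 CPM in all 68, against 9.46 CPM in the other neurons, a ratio of 63.1 (50.9 to 78.2) for the 62 and of 41.4 (33.4 to 51.3) for the 68. Jak1 (chr4:101152367-101265282) had from 0 to 64 UMIs a marker-rich cell with a median of 12. Its level was 3611 CPM in the 62 and 2477 CPM in the 68, against 258 CPM in other neurons, with ratios of 14 (13 to 15) and 9.58 (8.95 to 10.2). Osmr and Il31ra were seen together in 36 of the 62 cells, Osmr without Il31ra in 14, Il31ra without Osmr in 3, and neither in 9. All 50 cells with Osmr also had Jak1.

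Over all genes tested, those with a mean of at least 50 CPM over both groups and outside the 14 rule genes, 101 of 4023 (2.51%) were at least 2-fold higher in the 68 itch neurons than in the other neurons and 134 (3.33%) were at least 2-fold lower. With the 62 marker-rich cells, 221 of 4017 (5.5%) were higher and 247 (6.15%) were lower. Of the 6 cytokine receptor genes tested Osmr was the 1 higher. With 9.46 CPM in other neurons it reached the mean of 50 CPM only through the itch neurons, so its call is only a description. The leukaemia inhibitory factor receptor gene Lifr had a ratio of 1.59 (1.37 to 1.83), and Il6st, the shared subunit gp130, one of 1.45 (1.18 to 1.75). Of the 7 JAK-STAT genes tested, Jak1 and Socs2 were higher in the 68 and none was lower, while in the marker-rich cells these 2 of 8 were higher and 1, the phosphatase gene Ptpn11, was lower at 0.401 (0.207 to 0.702). Socs2, a feedback inhibitor of cytokine signalling, reached 404 CPM in the marker-rich cells against 70.3 CPM, a ratio of 5.75 (4.69 to 6.99). Stat3, the main STAT partner of gp130 family receptors, stood at 311 CPM with a ratio of 1.36 (1.08 to 1.68). The interleukin-4 receptor gene Il4ra gave 3 UMIs in the 62 cells, or 11.1 CPM, and is named although it is low because that receptor is known in itch.

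Among the 25 genes with the highest ratio, several others encoded receptors and enzymes. S1pr1 (chr3:115710433-115715072), a sphingosine 1-phosphate receptor, was seen in 26 marker-rich cells with at most 3 UMIs each and had a ratio of 63.4 (39.3 to 102). Adk and Ada, which encode enzymes that remove adenosine, stood in the list, but no set of adenosine genes was tested. Adk, adenosine kinase, was seen in all 62 marker-rich cells with 1 to 44 UMIs and had a ratio of 10.8 (9.84 to 11.8), but it was also seen in 76.2% of Mrgpra3 neurons, at 813 CPM, and reached 504 CPM in Mrgprd neurons. Both groups are defined with their comparison further on, and the ratio to Mrgpra3 neurons was 2.45 (2.09 to 2.88). Ada, adenosine deaminase, was seen in 21 marker-rich cells with a ratio of 46.6 (30.3 to 70.9). Outside the rule genes and among genes seen in 20% of the members, the highest ratio was that of Gm525, at 141 (71.1 to 293) in the marker-rich cells from 26 UMIs against 0.683 CPM elsewhere. Ptprk, a receptor tyrosine phosphatase, had 73.1 (40.5 to 132) and Ildr2, an immunoglobulin-domain protein gene, 51.9 (36.5 to 73.3). Plaur, the urokinase receptor gene, Pde4c, a cyclic AMP phosphodiesterase gene, and Mical1, which encodes an actin-oxidising enzyme, had 35.1, 29.7 and 13.1, while the ratio of Mical1 to Mrgpra3 neurons was 2.57 (1.93 to 3.47). With the 62 cells in place of the 68, 24 of these 25 genes were again among the top 25.

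**Figure D3:**
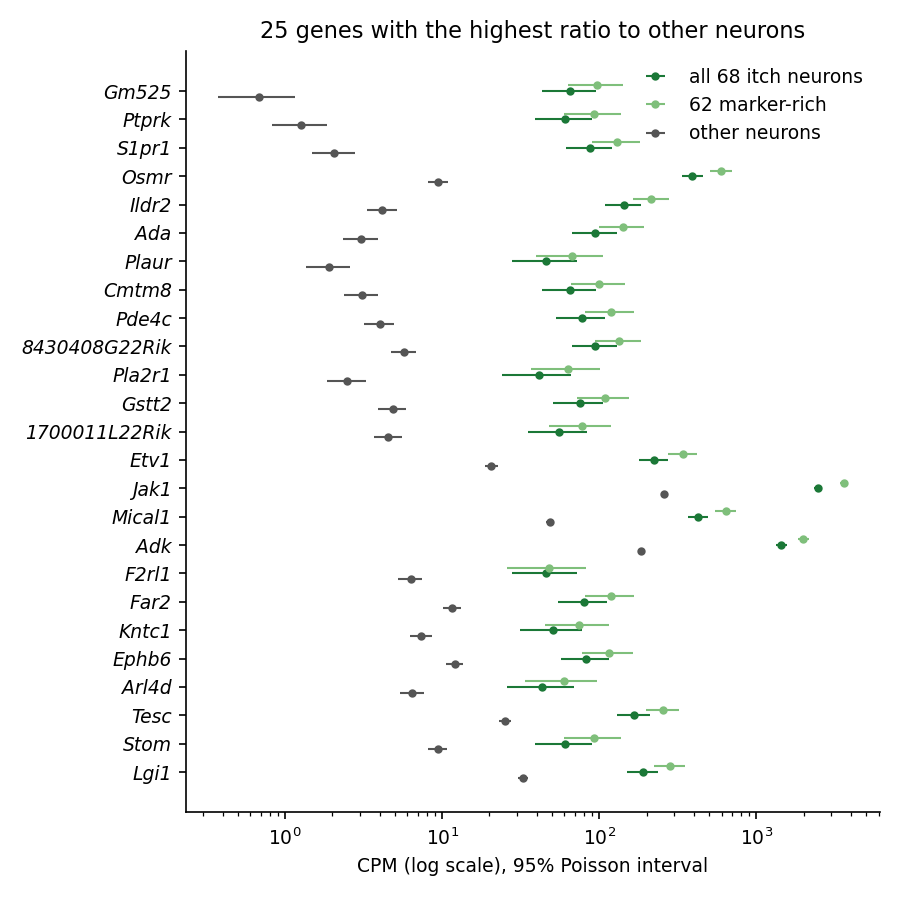
Points are the summed level of each of the 25 genes in CPM on a log x axis, with 95% Poisson intervals. Green marks all 68 itch neurons, light green the 62 marker-rich ones and grey the other neurons. Jak1 and Adk had the highest levels of the 25, which were chosen by their ratio.

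Receptors for lipids and proteases were detected at lower levels. F2rl2 and Lpar1, genes of a protease-activated receptor and a lysophosphatidic acid receptor, were the 2 of 4 genes tested in that list that were higher in the 68, with ratios of 2.86 (2.11 to 3.79) and 2.24 (1.64 to 2.99), beside 2.51% of all genes. With S1pr1 they were the 3 higher of 5 tested in the marker-rich cells, beside 5.5%. S1pr1 had 129.8 CPM there and 2.05 CPM in other neurons. It reached the level for testing only through the marker-rich cells, so its call is only a description. The protease receptor gene F2rl1 was seen in 11 of the marker-rich cells and had a ratio of 7.66 (3.97 to 13.6) to other neurons, but one of 1.76 (0.878 to 3.26) to neurons with Mrgprd, an interval that includes 1. None of the 25 amine receptor genes in the table, a list without the rule gene Htr1f, reached the level for testing in the 68. The nicotinic receptor subunit gene Chrna6 did so in the marker-rich cells, through their own level of 85.3 CPM against 25.9 CPM in other neurons, so that its ratio of 3.29 (2.07 to 4.99) is only a description. The histamine receptor gene Hrh1, singled out after its values were seen, had 11 UMIs in 10 marker-rich cells, or 40.8 CPM, against 1.80 CPM in other neurons and 18.5 CPM in Mrgpra3 neurons, a ratio to the latter of 2.21 (0.707 to 8.10). Of the 13 Mas-related receptor genes only Mrgprd reached that level, at 33.4 CPM in the marker-rich cells from 9 UMIs in 8 cells, against 114 CPM in other neurons and 2.30 CPM in glia.

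Trpv1, the capsaicin receptor, was seen at full depth in 34 of the 68 members, or 50% (37.6 to 62.4%), and 32 of the 62 marker-rich cells, with at most 9 UMIs in a cell. Cells were also thinned to 1000 UMIs each, since a deeper cell has more chances to show a gene. At that depth the share of the 68 with Trpv1 was 25% (15.3 to 37%), against 38.1% (35.3 to 40.9%) of CGRP nociceptors, 9.52% (2.66 to 22.6%) of Mrgpra3 neurons, 2.87% (1.44 to 5.08%) of Mrgprd neurons and 0.412% of glia. The interval of the itch neurons overlapped those of the CGRP nociceptors and the Mrgpra3 neurons, and lay above that of the Mrgprd neurons. As a level, Trpv1 reached 234 CPM in the marker-rich cells, 2.34 times (1.47 to 3.82) that of Mrgpra3 neurons and 0.474 times (0.363 to 0.609) that of CGRP nociceptors.

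Piezo2, a channel opened by light touch, was seen in 57.4% (44.8 to 69.3%) of the 68 at full depth and in 25% (15.3 to 37%) at 1000 UMIs. The share at equal depth was 31.0% in Mrgpra3 neurons, 59.3% in Mrgprd neurons, 8.52% in CGRP nociceptors and 2.47% in glia. Its level of 337 CPM in the marker-rich cells was 0.382 times (0.306 to 0.472) that of Mrgprd neurons and 3.34 times (2.64 to 4.18) that of CGRP nociceptors. Trpv1 and Piezo2 occurred in the same marker-rich cell in 19 cases, Trpv1 without Piezo2 in 13, Piezo2 without Trpv1 in 18 and neither in 12, and at these depths a missing UMI does not show that a cell lacked the gene. Trpa1, the receptor for mustard oil and other irritants, had 2 UMIs in the 62 cells, or 7.42 CPM, against 123 CPM in other neurons and 5.32 CPM in red blood cell barcodes. It was therefore not distinguishable from background in the marker-rich cells, and 17 of the 19 Trpa1 UMIs of the 68 were in marker-poor cells. The 2 cells with Trpa1 had Trpv1 as well.

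**Figure D4:**
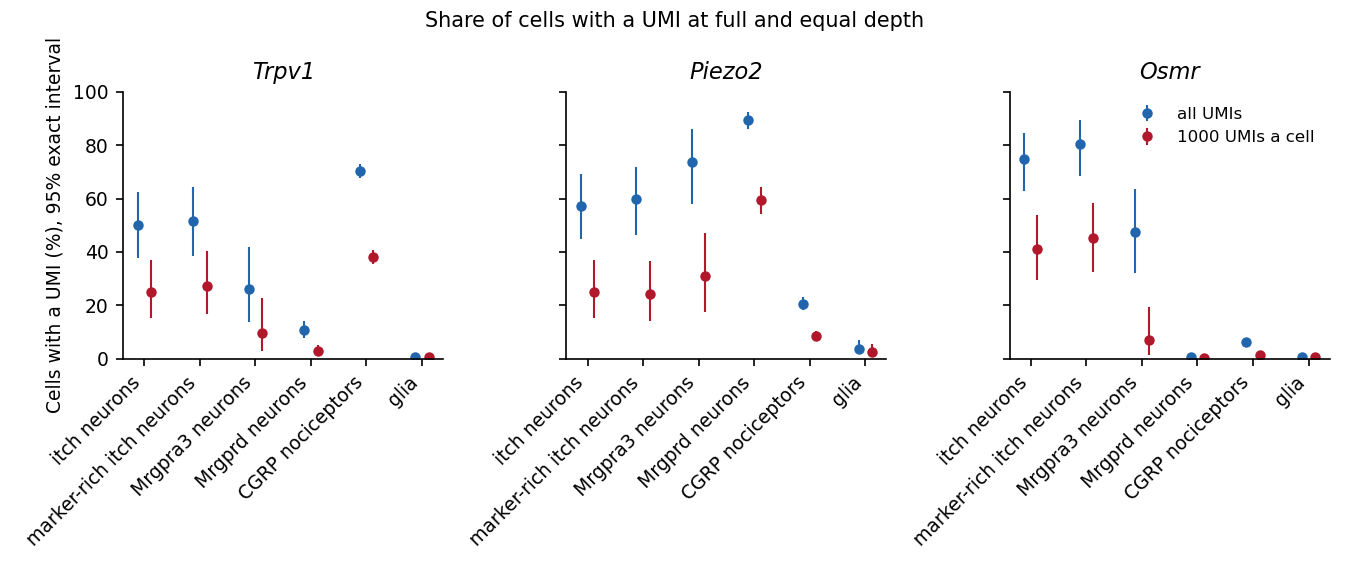
Points give the share of cells with a UMI of Trpv1, Piezo2 or Osmr in 6 groups, with exact 95% binomial intervals, in blue at full depth and in red after each cell was thinned to 1000 UMIs. Equal depth lowered the shares of all 5 neuron groups for Trpv1, from 50% to 25% in the itch neurons, and Osmr was at 41.2% in itch neurons against 7.14% in Mrgpra3 neurons.

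In the ion channel lists more genes were lower than higher. Of the 11 transduction channel genes tested, none was higher in the 68 and 3 were lower, namely Asic3, Tmem100 and Trpa1, and of the 11 sodium and calcium channel genes none was higher and 2 were lower, beside 3.33% lower over all genes tested. In the marker-rich cells none was higher in either list. There 2 of 9 were lower, Asic3 and Trpa1, and 3 of 12, Cacnb4, Scn1a and Scn4b, beside 6.15% of all genes. Scn10a, the sodium channel Nav1.8 of nociceptors, was seen in 55 of the 62 marker-rich cells at 764 CPM, with a ratio of 1.97 (1.71 to 2.26) to other neurons but below the 1109 CPM of Mrgpra3 neurons. Scn11a, which encodes Nav1.9, had a ratio of 1.21 (1.01 to 1.45). It stood at 0.394 times (0.317 to 0.488) the level of Mrgpra3 neurons and 0.371 times (0.306 to 0.445) that of Mrgprd neurons. The sodium channel gene Scn1a and the calcium channel subunit gene Cacnb4 were the 2 lower in the 68. Of 8 potassium channel genes tested, Kcnn1 was higher in the 68, and Kcna1 and Kcnc4 were lower, with ratios of 2.41 (1.69 to 3.36), 0.296 (0.175 to 0.469) and 0.237 (0.102 to 0.469). Over all genes tested 2.51% were higher and 3.33% were lower. In the marker-rich cells Kcnn1 had 3.30 (2.25 to 4.67), and Kcna1 and Kcnip4 were the 2 lower of 7, beside 5.5% higher and 6.15% lower over all genes. All 15 marker-rich Kcna1 UMIs were in 1 cell.

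The intracellular list for Gq, phospholipase C and calcium held several higher genes. Of 14 tested, 6 were at least 2-fold higher in the 68 (Camk2a, Camk4, Gna14, Prkca, Prkcd and Tesc) and none was lower, with a median log2 ratio of 0.85. Over all genes tested 2.51% were higher and the median was 0.03. With 25.1 CPM in other neurons, Tesc reached the level for testing only through the itch neurons, so its call is only a description. In the marker-rich cells the calcium-dependent kinase gene Camk2a had a ratio of 4.95 (4.04 to 6.01), the protein kinase C gene Prkcd one of 3.77 (3.30 to 4.28) and the Gq family subunit gene Gna14 one of 3.73 (2.93 to 4.69). Tesc, which encodes the calcium-binding protein tescalcin, had 10.2 (7.81 to 13.1), and Plcb3, the phospholipase C through which many itch receptors signal, had 2.25 (1.73 to 2.88), but stood at 0.652 times (0.470 to 0.900) the level of Mrgpra3 neurons and 0.650 times (0.496 to 0.838) that of Mrgprd neurons. In these cells 7 of 13 were higher and 2 were lower, namely Plcd4 and Rgs10, beside 5.5% and 6.15% of all genes. Of 13 genes for Gi, Gs and cyclic nucleotides, none was higher in the 68 and 1, Pde11a, was lower, beside 2.51% and 3.33% of all genes. Of 12 tested in the marker-rich cells, Gnal was higher and Prkar2b was lower, beside 5.5% and 6.15%.

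Among peptide genes other than the 2 of the rule, 5 of 9 tested were lower in the 68, beside 3.33% of all genes tested, and none was higher, with a median log2 ratio of -1.35. In the marker-rich cells 6 of 10 were lower, beside 6.15%, and 1, Vip, was higher, beside 5.5%. Calca fell from 856 CPM in the 68 to 51.9 CPM in the 62, below the 73.5 CPM of glia and 86.8 CPM of red blood cell barcodes, so it was at the level of background in the marker-rich cells, while CGRP nociceptors, which were chosen by Calca and Tac1, had 12854 CPM. Tac1 was above background: it was seen in 38 of the 62 cells, with at most 20 UMIs in a cell, and its 460 CPM stood against 50.6 CPM in glia. That level was 15.5 times (7.65 to 36.8) that of Mrgpra3 neurons, while the nociceptors chosen by it had 7591 CPM. A cell that also met the Calca and Tac1 rule of the nociceptors was not counted as an Mrgpra3 neuron. That definition limited the Tac1 of the Mrgpra3 group, which had 8 UMIs in 8 cells, so the ratio is only a description. Nmb, the neuromedin B gene, was seen in 34 of the 62 cells at 356 CPM, with a ratio of 1.17 (0.943 to 1.43). The neurotensin gene Nts, singled out after its values were seen, had 12 UMIs in 7 marker-rich cells, against 0.634 CPM in other neurons.

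The Vip value shows how far 1 cell can reach in so small a class. All 84 Vip UMIs came from 1 marker-rich cell of 11062 UMIs that also had 9 UMIs of Nppb and 8 of Sst and held 58.1% of the marker-rich UMIs of Chgb. Another marker-rich cell, of 30290 UMIs with 23 of Nppb and 25 of Sst, held 93.8% of the marker-rich S100b UMIs, 58.4% of Nefh, 66.5% of Nefm, all of Kcna1 and 93.3% of Asic3, genes of large myelinated neurons. Both had the class markers as well. Nefh was not limited to the second cell and was seen in 25 of the 62.

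The secretory machinery was present. Scg2, a granin of dense-core vesicles, was seen in every marker-rich cell at 3003 CPM, a ratio of 4.16 (3.87 to 4.46) to other neurons, and Resp18, another secretory granule gene, had 886 CPM and a ratio of 7.89 (6.88 to 9.02). They were the 2 of 11 granin and processing genes that were higher in the 68, where none was lower, beside 2.51% and 3.33% of all genes, shares that hold also for the next list. The other 9, such as Pcsk1n, Cpe and Pam, had ratios between 0.652 and 1.31 in the 68. In the marker-rich cells 1 of the 11 was lower, beside 6.15% of all genes. It was Vgf, which encodes a secreted granin-like precursor, at 0.478 (0.238 to 0.857). Of 11 transmitter release genes, the calcium sensor gene Syt9 was higher in the 68 and Syt2 was lower. In the marker-rich cells Syt9 was again higher and Slc17a6 was lower too, beside 5.5% and 6.15% of all genes. The vesicular glutamate transporter gene Slc17a6 was seen in 29.0% of the marker-rich cells at 115 CPM, against 403 CPM in other neurons.

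Of 15 transcription factor genes tested, Etv1 and Klf5 were higher in the 68 and Casz1 and Pou4f3 were lower, beside 2.51% and 3.33% of all genes. Of 14 tested in the marker-rich cells, Etv1, Klf5 and Isl2 were higher and Isl1 and Pou4f3 were lower, beside 5.5% and 6.15%. With 20.5 CPM in other neurons, Etv1 reached the level for testing only through the itch neurons, so its calls are only a description. Etv1 (chr12:38779380-38870484), an ETS factor gene, was seen in 43 of the 62 marker-rich cells and in none of the 6 marker-poor ones. Its 341 CPM was 16.6 times (13.1 to 20.9) that of other neurons but 0.738 times (0.558 to 0.974) that of Mrgpra3 neurons, which had 462 CPM. Klf5, a zinc finger factor gene, had a ratio of 5.50 (4.17 to 7.13) in the marker-rich cells. Runx1, needed for the non-peptidergic nociceptor fate, was near the other neurons with 0.813 (0.551 to 1.16). Ret, which encodes the signalling receptor for the glial cell line-derived neurotrophic factor family, was at 330 CPM against 289.8 CPM.

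The class was also compared with 3 groups of neurons chosen by their own markers: 42 Mrgpra3 neurons, with a UMI of that chloroquine receptor gene and none of Nppb or Sst, 383 Mrgprd neurons, and 1197 CGRP nociceptors with at least 5 UMIs of Calca and 2 of Tac1. Osmr ran from 597 CPM in the marker-rich itch neurons to 115 CPM in Mrgpra3 neurons, 18.1 CPM in CGRP nociceptors and 1.55 CPM in Mrgprd neurons, and these neighbours in the order differed beyond their counting error. Jak1 was 5.61 times (4.77 to 6.64) higher in the marker-rich itch neurons than in Mrgpra3 neurons, which had 643 CPM. Against Mrgpra3 neurons the genes with the highest ratios in the marker-rich cells also included Scg2 at 30.1 (20.5 to 45.9), Laptm4b at 19.7 (6.43 to 98.4) and Ildr2 at 19.4 (6.31 to 96.8). Calca and Calcb lay at the other end, with 0.0138 (0.00751 to 0.0233) and 0.0171 (0.00349 to 0.0508), followed by Ly86, Synpr, Rab27b, Grik1 and Cd44, between 0.0248 and 0.0324. Against Mrgprd neurons, Grik1, a kainate receptor gene, was the lowest at 0.00638 (0.000772 to 0.0231), while Scg2 had 263 (173 to 423) and Resp18 had 155 (85.3 to 316). To CGRP nociceptors the ratios were smaller, at 2.03 (1.88 to 2.18) for Scg2 and 6.81 (5.85 to 7.92) for Resp18. In all 68, the ratios to Mrgpra3 neurons were led by Tac1 at 34.8 (17.5 to 81.1) and Scg2 at 21.9 (14.9 to 33.4). Cells that also met the Calca and Tac1 rule were not counted as Mrgpra3 neurons. This limited the Tac1 of that group, so the Tac1 ratio is only a description. Of the 425 Tac1 UMIs, 301 were in the 6 marker-poor cells, and without them Tac1 came after Scg2, Tesc, Laptm4b and Ildr2. For this order the 1 Tesc UMI of the Mrgpra3 neurons was ranked as 3. The lowest ratios in all 68 included Gfra1, the co-receptor gene of Ret, at 0.0744 (0.0345 to 0.143) and Tmem150c at 0.0418 (0.00832 to 0.130). The ratios of all 68 to Mrgprd neurons were led by Osmr at 252 (84.7 to 1235), and the lowest was that of Rspo2, from 2 UMIs. Tmem233 was high in the itch neurons and in both Mrgpr groups, at 3155 CPM in the marker-rich itch neurons, 1893 in Mrgpra3 neurons and 2381 in Mrgprd neurons, against 156 in CGRP nociceptors.

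**Figure D5:**
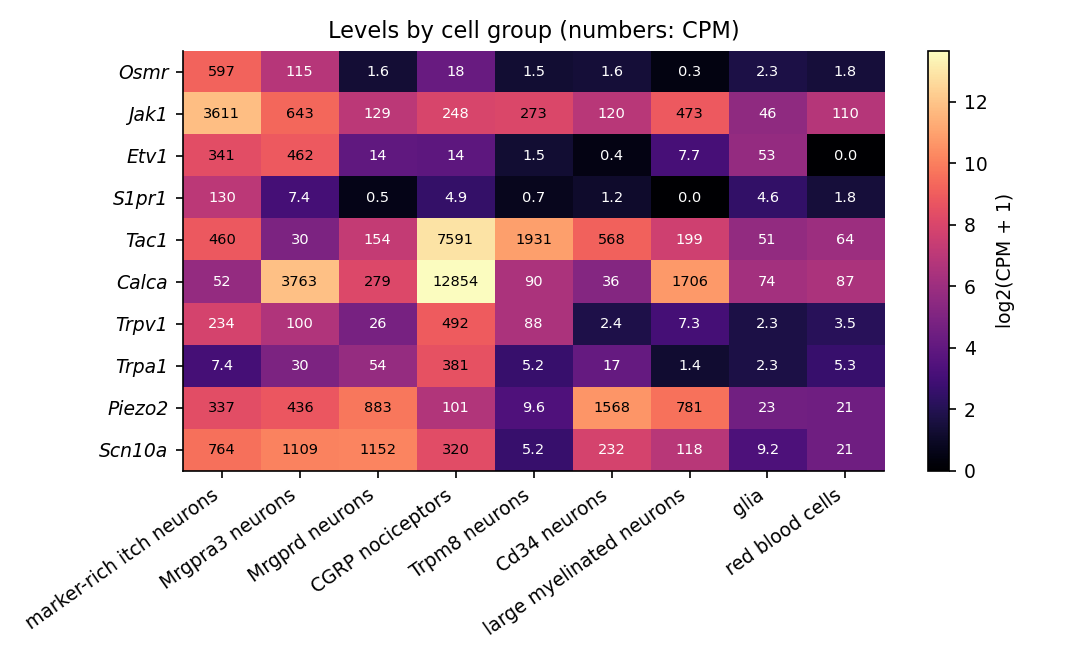
Cells of the grid give the summed level of 10 genes (rows) in 9 cell groups (columns) as CPM, with colour on a log2(value + 1) scale. Osmr and Jak1 were highest in the marker-rich itch neurons, Etv1 was shared with Mrgpra3 neurons, and Calca in the marker-rich itch neurons was below its level in glia and red blood cell barcodes.

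The lowest ratios to other neurons depended on the marker-poor cells. In the 68 the 15 lowest included the myelin gene Mbp at 0.0757 (0.0423 to 0.125), and Chd5, Gal and Tmem150c. The 6 glia marker genes together made up 148 CPM in the 68 and 1777 CPM in the other neurons, where 1 barcode reached 188942 CPM, although the median cell had 27.0 CPM in the first and 0 in the second. Their part in the Mbp ratio was not tested. With the 62, only 4 of the 15 lowest genes were the same, and 7 of the 15 had no UMI at all, among them the cadherin genes Cdh1 and Cdh11. A count of 0 in these cells allows a level of up to 11.1 CPM, taken as 3 UMIs, against 112 and 118 CPM in other neurons. Cartpt, which encodes the CART peptide, had 472 CPM in the 68 and 11.1 CPM in the 62, with ratios of 0.684 and 0.0161.

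Red blood cell genes together made up 3433 CPM in the marker-rich cells and 6077 CPM in other neurons, and pituitary genes 304 and 1075 CPM. The median cells were closer, with 1810 and 1906 CPM of red blood cell genes and 0 of pituitary genes in both, and single other neurons reached 662727 and 428622 CPM. Of the 6 endothelial and fibroblast markers 5 had no UMI in the class, and so had 7 of 8 immune markers. The remaining one, Aif1, had 12 UMIs in 11 marker-rich cells, or 44.5 CPM, against 21.7 CPM in other neurons. Of 8 immediate early and injury genes tested, none was 2-fold higher or lower in the 68, which is near the 2.51% and 3.33% of all genes.

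With the 14 rule genes left out, the class still stood together. Among the 10 nearest neighbours of a member in 20 principal components of 2000 variable genes, the median number that were also members was 8, with a range of 0 to 10, and 54 of the 68 had at least 6. The 6 marker-poor cells had none, and the median of the marker-rich cells was 9. Only 3 marker-rich cells had none, among them the 2 with the Vip and the S100b counts. Of the 3787 other neurons, 3711 had no itch neuron among their neighbours, and in Mrgpra3 neurons the highest number was 4. The 8 other neurons with at least 6 itch neighbours included 6 with a UMI of at least 1 of the 6 markers, 6 with Osmr and 2 with Mrgpra3.

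Barcodes just outside the rule were of several kinds. In the neuron gate, 211 had exactly 1 of the 6 markers, with a median of 6266 UMIs and a median marker content of 193 CPM, against 1158 CPM for the 14 members with 2 markers, and 2 had 2 or more markers but none of Nppb, Sst or Il31ra. Before the gate, 88 barcodes met the marker part of the rule: 5 failed the limits on genes, 3 the neuronal genes, 9 the Epcam criterion and 3 the Mrgpra3 criterion. Of the 9 with Epcam, 1 also had Mrgpra3. No glia or red blood cell barcode out of 597 met the marker part. The table listed 6 barcode sequences more than once, none of them a member's. The barcodes of 6 members ended in an uncalled base. Of the pairs in which such a barcode was another one less 1 base, 3 involved a member, and 1 was of 2 members, with 1374 and 8072 UMIs. Whether such a pair was 1 cell was not tested.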

How the data were processed

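The deposited table holds UMI counts for 21536 genes in 6997 barcodes of the 9 runs, merged by the authors. The submitters' processing notes name bcl2fastq 2.17, STAR 2.5.3a, Seurat 1.4.0.16 and build mm10. Counts were used as deposited. The lowest total of a barcode was 1000 UMIs. Members and gene lists were chosen with earlier results of these data known, and the split at 500 CPM of the 6 markers was made after seeing these values.

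Group levels are summed UMIs as counts per 1000000 (CPM) with exact Poisson intervals, shares have exact binomial (Clopper-Pearson) intervals, and ratios have exact conditional binomial intervals, all at 95%. A count of 0 was given an upper limit of 3 UMIs. These cover counting error only. Glia and red blood cell barcodes had at most 1 of the 6 neuronal genes and at least 3 of 6 glia or 2 of 4 red cell genes. Other groups were Trpm8 neurons (2 UMIs), Cd34 neurons and large myelinated neurons (5 UMIs of Nefh and 1 of S100b), each cell fitting 1 rule only. No doublet caller was run. No p-value was computed, since the barcodes name no run and all cells were treated as 1 sample. Named genes were list genes with at least 50 CPM or a UMI in 20% of members, the 25 highest and 15 lowest ratios to other neurons among genes seen in 20% of the higher group, and the 10 highest and lowest ratios to Mrgpra3 and Mrgprd neurons, in all members and in the marker-rich ones, where counts under 3 were ranked as 3. The comparison with CGRP nociceptors was added after seeing the data. Some genes that these rules name are not reported here. Of 458 list genes, 5 are not analysed here and 3 were matched by an older symbol. Scripts ran in Python 3.11.15 with numpy 2.4.6 and scipy 1.17.1 and were tested on simulated data.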

Additional observations from a re-analysis of the deposited data

Results flagged for a closer look

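The 8 barcodes that met every part of the rule except for a UMI of Epcam lay outside the comparisons above. Of the genes that the rule did not use, all 8 had Osmr and Jak1, the latter with 6 to 135 UMIs and a level of 3994 CPM. Their Nppb, at 3 to 52 UMIs a cell and 2043 CPM, their Sst, at 1676 CPM, and their marker content of 1024 to 7168 CPM follow from the marker part of the rule and are only a description. They had 9 Epcam UMIs in all, at most 2 in a cell. Among barcodes that met the rule with Epcam ignored, 8 of 76 had a UMI of Epcam (10.5%, 4.66 to 19.7%), against 348 of 4135 other neurons (8.42%, 7.59 to 9.30%), 9 of 500 barcodes with a UMI of Mrgprd (1.80%, 0.826 to 3.39%), 4 of 61 with one of Mrgpra3 (6.56%, 1.82 to 15.9%), all counted without the Epcam criterion and so wider than the groups compared above, and 16 of 354 red blood cell barcodes (4.52%). The median depth ran from 1392 UMIs in the red blood cell barcodes to 5589 in the Mrgpra3 barcodes, so these shares were not taken at equal depth. As a level, Epcam was at 18.4 CPM (8.40 to 34.9) in the 76, and at 26.0 CPM (11.9 to 49.4) in the 70 of them with at least 500 CPM of the markers. Both lay below the 76.6 CPM (73.0 to 80.3) of other neurons, where single barcodes had up to 44 Epcam UMIs, against at most 2 in the 76. The red blood cell barcodes had 70.9 CPM (50.6 to 96.5) and the glia 37.0 CPM (21.6 to 59.3), the Mrgprd barcodes 7.11 CPM (4.60 to 10.5) and the Mrgpra3 barcodes 7.99 CPM (2.18 to 20.4). The interval of the 76 overlapped those of the glia, the Mrgprd and the Mrgpra3 barcodes. With these cells the class would have had 76 members.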

How the results depend on the processing

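All cells were treated as 1 sample, so the spread between mice is unknown and leaving out a replicate was not possible. No paired analysis was possible because the labels give 1 group and the barcodes name no run. The number of itch neurons stayed between 51 (each neuron thinned to 1000 UMIs first) and 76 (without the Epcam criterion) in the 7 alternatives tried. The counts of genes did not hold as well. At least 2-fold higher were 101 genes, but 236 with 3 or more markers, 209 with at least 2 UMIs of Nppb, Sst or Il31ra, 245 as a mean over cells, 237 without the tenth of cells with most UMIs, 200 without cells that had Mrgprd, Trpm8 or Cd34, 221 with at least 500 CPM of the markers, 432 after thinning, 57 with a mean CPM of at least 100, and 1395 with no filter. At least 2-fold lower were 134 genes, and in the same order 256, 230, 272, 266, 222, 247, 362, 49 and 8801. The alternatives with 900 genes or with other neurons free of any marker gave 100 and 102 higher and 135 and 138 lower. The share with Trpv1 and that with Piezo2 both fell to 25% after thinning and otherwise stayed within their intervals. The mean percentage of neighbours that were itch neurons was 70.9%, and 58.7% to 77.7% under the alternatives. Of the 40 genes named by ratio to other neurons, none changed direction, which their choice had all but fixed, but up to 23 (after thinning) had a ratio outside the counting interval of the value reported. That number was 20 as a mean over cells, 18 with 3 or more markers, 16 with at least 500 CPM of the markers and also without the tenth of cells with most UMIs, 11 in each of the alternatives on 2 UMIs and on Mrgprd, Trpm8 or Cd34, 3 with other neurons free of any marker and 0 with 900 genes.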
